A study of Mus musculus with 20 samples.

Results

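The genes described here encode the chains of the collagens, the triple-helical proteins that form most of the fibrous extracellular matrix. They were taken by symbol, as every gene whose single platform symbol reads Col, a number, a and a number. Of the 22180 genes tested, 44 had such a symbol, and all 44 are accounted for below. RNA was hybridised to Affymetrix mouse gene arrays. It came from C2C12, a line of mouse myoblasts that takes on traits of bone-forming osteoblasts under bone morphogenetic proteins. The cells were given recombinant BMP4 at 10, 100 or 300 ng/ml (2 arrays each), or one of 3 compounds known here by the code names 942, 178 and 181 at 6.25, 12.5 or 25 µM (1 array per dose). The controls were methanol (3 arrays), taken as the vehicle of the compounds, and untreated cells (2 arrays), taken as the control of BMP4. The design text sets the effects of the compounds beside that of BMP4, and the series title calls the compounds activators of BMP signalling. All groups were grown in medium with serum, and a treatment time was not given in the sources used here.

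Collagen chains fold in threes into a rod, and the chains that pair with each other define a collagen type. Fibrillar collagens (types I, II, III, V, XI, XXIV and XXVII) form the load-bearing fibrils of bone, cartilage, skin and tendon. FACIT collagens sit on the surface of those fibrils, type VI forms beaded filaments around cells, and type IV forms the network of basement membranes, which sheathe muscle fibres. In bone, type I is the main organic component and is laid down by osteoblasts under factors that include the BMPs.

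Values are log2 signals of probe sets, so a difference of 1 is a doubling of the signal. Levels of different genes were not set against each other, because probe sets differ in how strongly they bind. Array medians lay between 4.93 and 5.05, and arrays of one group correlated at r = 0.982 to 0.991. The arrays carried no detection calls. The array of 300 ng/ml replicate 1 and the 3 arrays of compound 942 were labelled by another method (Affyexpress) than the rest. A term for this method was fitted, so the fitted value at 300 ng/ml is that of replicate 2 alone. In cell populations like these, a change in the number of cells that make a collagen cannot be told apart from a change in RNA per cell. Nothing in the labels ties the arrays of one group to separate cultures. The p-values therefore rest on array-to-array spread, which may be technical.

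The line was checked against markers. Myoblast markers (Myod1, Myf5, Cdh15, Des, Myog and Chrna1) were present, with summed linear signals of 4667 to 11216 in BMP4 arrays, 9761 to 11720 in compound arrays, 11107 to 11891 with methanol and 11414 to 11441 in untreated cells. With BMP4, 5 of the 6 fell. Of 4 osteoblast markers measured, Sp7, Alpl and Bglap rose, and Ibsp, at -0.30, did not pass the test. Sums of the 4 were 103 to 2919 in BMP4 arrays against 95.8 to 100.4 in untreated cells. Of 5 fibroblast markers, Pdgfra, Dpt and Dcn rose and Pdpn fell, with sums of 3670 to 5402 against 2646 to 3128. Of 5 chondrocyte markers, Sox9 fell and Acan, Matn3, Hapln1 and Comp did not pass the test, with sums of 727 to 947 against 1010 to 1090. None of 6 endothelial, 6 leukocyte and 5 epithelial markers passed (limma, adjusted p under 0.05), and 0, 1 and 1 of them had an unadjusted p under 0.05. The part of these cell states in the collagen results was not tested.

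BMP4 raised both type I chains, 2 of the 3 type V chains, 3 of the 6 type VI chains, the type XII chain and 3 others, and left most chains of the family without a call. Set against untreated cells, the mean over the 3 BMP4 doses was higher for 11 of the 44 collagen genes and lower for 1 (limma, Benjamini-Hochberg adjusted p under 0.05 over all genes). Over all 22180 genes, 4.2% were called higher and 4.6% lower. The median difference of the 44 genes was 0.02, against -0.01 for all genes. In all, 14 of the 44 had an unadjusted p under 0.05, beside 19.9% of all genes. Called higher were Col12a1, Col1a2, Col6a2, Col1a1, Col2a1, Col6a1, Col8a2, Col6a3, Col5a2, Col5a1 and Col11a1, in order of size, from 2.17 to 0.54. Called lower was Col18a1 alone, at -0.59. By class, the called genes were 6 of 11 fibrillar chains, 3 of 6 type VI chains, 1 of 9 FACIT chains, 1 of 3 short-chain chains and, as the single fall, 1 of 9 basement membrane chains. None of the 4 transmembrane and 2 other chains was called.

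**Figure D1:**
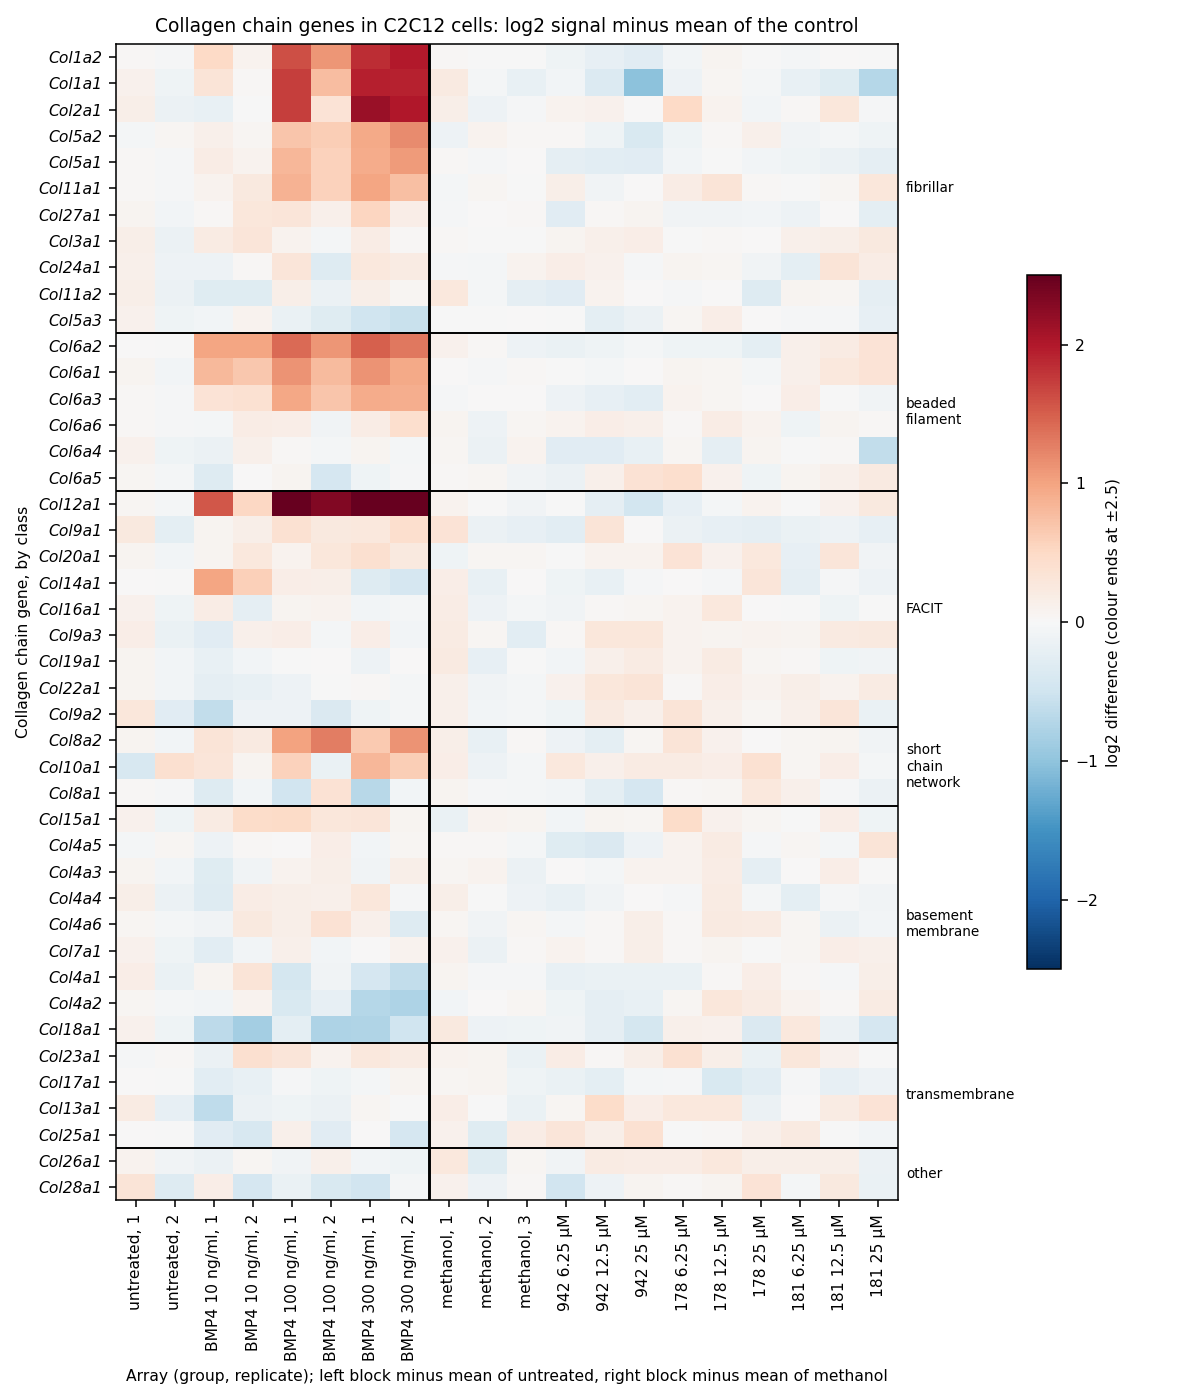
Log2 signal of the 44 collagen chain genes (rows, by class and then by size of the BMP4 difference) on each of the 20 arrays (columns), minus the mean of untreated cells on the left and the mean of methanol on the right. Red stands for higher and blue for lower. The 11 genes called higher are red at 100 and 300 ng/ml BMP4, and Col18a1, the 1 gene called lower, is blue at every dose. Some genes not called also keep a pale colour across the BMP4 columns, such as Col9a2 in blue and Col15a1 in red.

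Without any fitted spread, 8 genes had all 6 BMP4 arrays above all 5 untreated and methanol arrays, namely Col1a2, Col5a1, Col6a1, Col6a2, Col6a3, Col8a2, Col11a1 and Col12a1. Col18a1 alone had all 6 below. Among all genes, 3.19% lay wholly above and 4.59% wholly below.

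Type I collagen, the main fibril of bone, is built from 2 chains of Col1a1 and 1 of Col1a2. The signal of Col1a2 was 10.01 and 9.60 at 10, 11.12 and 10.62 at 100, and 11.35 and 11.49 at 300 ng/ml. It was 9.45, 9.41 and 9.42 with methanol, and 9.54 and 9.47 in untreated cells. The BMP4 arrays lay above every control array, with the 10 ng/ml arrays nearest to them. The mean over doses exceeded that of untreated cells by 1.22 (2.32-fold, 95% interval 0.92 to 1.52, limma adjusted p = 0.000172). Its second probe set gave 1.38 (adjusted p = 0.0137). By dose that probe set gave 1.04 at 10 (limma adjusted p = 0.299), 1.34 at 100 and 1.77 at 300 ng/ml. For Col1a1, the BMP4 arrays gave 9.49 and 9.19 at 10, 10.89 and 9.94 at 100, and 11.11 and 11.09 at 300 ng/ml. Its control signals were 9.18, 8.91 and 8.77 with methanol, and 9.28 and 9.05 in untreated cells. Here 1 of the 10 ng/ml arrays lay within the control range, and the arrays at 100 and 300 ng/ml lay above it. The mean difference was 1.12 (2.17-fold, interval 0.66 to 1.58, limma adjusted p = 0.00487). It missed the threshold without untreated replicate 2 (1.0) and without 300 ng/ml replicate 2, where the mean over 10 and 100 ng/ml alone gave 0.72.

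Type V chains, which start and limit the growth of type I fibrils, rose by less. Col5a1 read 8.41 and 8.32 at 10, 9.06 and 8.82 at 100, and 9.16 and 9.30 at 300 ng/ml. Controls read 8.23, 8.17 and 8.20 with methanol, and 8.26 and 8.20 in untreated cells. All BMP4 arrays were above all controls, and the mean difference was 0.64 (SE 0.10, limma adjusted p = 0.0015). The second, dimmer probe set of Col5a1 gave 0.11 (adjusted p = 0.787), and with both averaged the gene gave 0.37 (adjusted p = 0.0537). Col5a2, the partner chain, had 7.74 and 7.67 at 10, 8.32 and 8.24 at 100, and 8.57 and 8.80 at 300 ng/ml. Its signals without BMP4 were 7.48, 7.71 and 7.65 with methanol, and 7.57 and 7.66 in untreated cells. At 10 ng/ml the arrays overlapped the controls, and at the higher doses they did not. The mean difference of Col5a2 was 0.65 (SE 0.10, limma adjusted p = 0.00189). Over 10 and 100 ng/ml alone, in the fit without 300 ng/ml replicate 2, it was 0.38 and was not called. Col5a3, the third type V chain, was not called, at -0.26 (interval -0.51 to -0.02, adjusted p = 0.212).

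Cartilage fibrils are made of type II collagen with type XI as a minor partner. Col2a1, the type II chain, showed 5.83 and 6.0 at 10, 7.73 and 6.36 at 100, and 8.17 and 8.01 at 300 ng/ml. The signals of controls were 5.95, 5.68 and 5.78 with methanol, and 6.15 and 5.87 in untreated cells. The 10 ng/ml arrays lay among the controls, the 300 ng/ml arrays far above, and the 100 ng/ml arrays differed from each other by more than 1 log2 unit. The mean difference of 0.98 was just past the threshold (SE 0.27, limma adjusted p = 0.0467), and at 300 ng/ml it was 2.00 (adjusted p = 0.0075). Without any 1 of 8 arrays (both untreated, both 10 ng/ml, all 3 methanol and 300 ng/ml replicate 2) the mean difference missed the threshold. Without 300 ng/ml replicate 2 it covered 10 and 100 ng/ml alone and was 0.47. Col11a1 of type XI gave 4.70 and 4.86 at 10, 5.49 and 5.19 at 100, and 5.60 and 5.36 at 300 ng/ml. The control arrays stood at 4.43, 4.52 and 4.47 with methanol, and 4.65 and 4.58 in untreated cells. All BMP4 arrays lay above them, by a mean difference of 0.54 (SE 0.13, limma adjusted p = 0.0251). This difference missed the threshold if untreated replicate 1 (0.58), untreated replicate 2 (0.51) or 300 ng/ml replicate 2 was left out. In the last case it covered 10 and 100 ng/ml alone and was 0.45. The markers Acan, Matn3, Hapln1 and Comp, which cartilage cells make beside type II collagen, did not pass the test with BMP4. Sox9, the other chondrocyte marker on the list, was called lower (-0.39, limma adjusted p = 0.0215).

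Type III collagen, a fibril of skin, vessels and soft tissue, had no called change. Col3a1 gave 10.06 and 10.15 at 10, 9.93 and 9.79 at 100, and 10.03 and 9.88 at 300 ng/ml. Its controls gave 9.79, 9.76 and 9.75 with methanol, and 9.99 and 9.70 in untreated cells. The groups overlapped at each dose, except that both 10 ng/ml arrays lay above all controls. The mean difference was 0.10 (interval -0.10 to 0.31, limma adjusted p = 0.656), so a rise as large as that of Col1a2 lies outside its interval. The difference between the genes itself was not tested. The remaining fibrillar chains, Col11a2, Col24a1 and Col27a1, had mean differences of -0.08 to 0.18 and were not called.

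**Figure D2:**
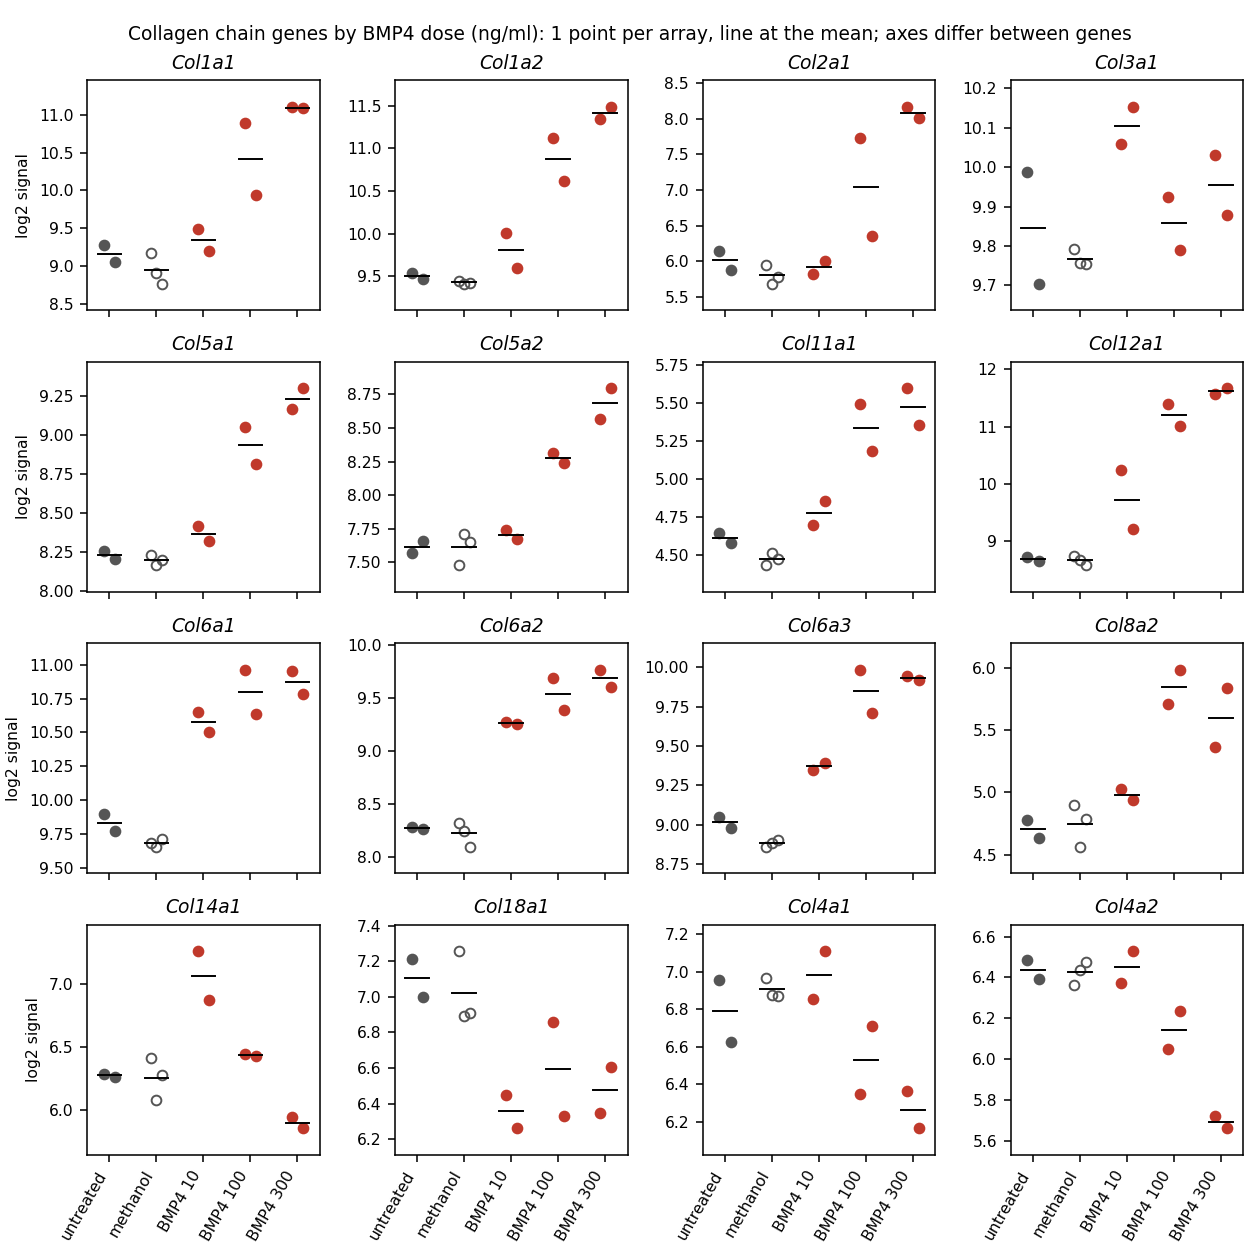
Log2 signal of 16 collagen chain genes by group, with 1 point per array, a line at the group mean, filled grey for untreated, open for methanol and red for BMP4 (ng/ml). At 10 ng/ml the points of Col6a1 and Col6a2 already lie above all controls. So do those of Col1a2, Col3a1, Col5a1, Col6a3, Col8a2, Col11a1, Col12a1 and Col14a1. The points of Col1a1, Col2a1 and Col5a2 are apart from the controls from 100 ng/ml, where those of Col3a1 lie among them.

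Type VI collagen forms beaded filaments next to the basement membrane of muscle and many other cells, and its common form joins the chains of Col6a1, Col6a2 and Col6a3. All 3 rose, and all were above every control array at every dose. Col6a2 gave 9.27 and 9.26 at 10, 9.69 and 9.39 at 100, and 9.76 and 9.60 at 300 ng/ml. The controls of Col6a2 were 8.33, 8.25 and 8.10 with methanol, and 8.29 and 8.26 in untreated cells. The mean difference was 1.19 (2.29-fold, SE 0.11, limma adjusted p = 3.64e-05), the smallest adjusted p among the 44 genes. Col6a1 showed 10.65 and 10.50 at 10, 10.96 and 10.63 at 100, and 10.96 and 10.79 at 300 ng/ml. Without BMP4 it showed 9.69, 9.66 and 9.71 with methanol, and 9.90 and 9.77 in untreated cells. Its mean difference was 0.89 (SE 0.10, limma adjusted p = 0.000164), and its second probe set gave 0.97 (adjusted p = 0.00129). Col6a3 was at 9.35 and 9.39 at 10, 9.98 and 9.71 at 100, and 9.94 and 9.92 at 300 ng/ml. Control arrays of Col6a3 were at 8.86, 8.88 and 8.90 with methanol, and 9.05 and 8.98 in untreated cells. The mean difference was 0.70 (SE 0.09, limma adjusted p = 0.00059). The alternative chains Col6a4, Col6a5 and Col6a6, which can take the place of the Col6a3 chain, were not called, with mean differences of -0.12 to 0.18.

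Col12a1 encodes the chain of type XII, a FACIT collagen of tendon, periosteum and muscle that links type I fibrils to other matrix. It rose more than any other collagen chain. Its BMP4 signals were 10.24 and 9.22 at 10, 11.40 and 11.01 at 100, and 11.57 and 11.67 at 300 ng/ml. In controls they were 8.75, 8.67 and 8.58 with methanol, and 8.73 and 8.65 in untreated cells. All BMP4 arrays lay above all controls, and the 10 ng/ml arrays differed from each other by about 1 log2 unit. The mean difference was 2.17 (4.51-fold, SE 0.21, limma adjusted p = 5.45e-05). At 10 ng/ml alone it was 1.03 with adjusted p = 0.0799, at 100 ng/ml 2.51 (adjusted p = 6.72e-05) and at 300 ng/ml 2.98 (adjusted p = 0.000103).

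Col14a1, the chain of the related FACIT type XIV, moved one way at the lowest dose and did not keep that direction. The signals were 7.26 and 6.87 at 10, 6.44 and 6.42 at 100, and 5.94 and 5.85 at 300 ng/ml. Those of controls were 6.41, 6.07 and 6.27 with methanol, and 6.28 and 6.26 in untreated cells. Both 10 ng/ml arrays lay above every control and both 300 ng/ml arrays below. At 10 ng/ml the difference from untreated cells was 0.79 (SE 0.16, limma adjusted p = 0.0449), at 100 ng/ml 0.16 (adjusted p = 0.719) and at 300 ng/ml -0.42 (adjusted p = 0.301). The slope over the 3 doses was -0.24 per doubling (SE 0.04, limma adjusted p = 0.00351). The call at 10 ng/ml was lost without either untreated array, without 10 ng/ml replicate 1 and without methanol replicate 2 or 3, with adjusted p = 0.072 to 0.291. The other 7 FACIT genes, Col9a1, Col9a2, Col9a3, Col16a1, Col19a1, Col20a1 and Col22a1, had mean differences of -0.22 to 0.28 and were not called.

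Short-chain collagens form hexagonal nets. Col8a2, a type VIII chain known from the cornea and vessel walls, had 5.03 and 4.94 at 10, 5.71 and 5.98 at 100, and 5.36 and 5.83 at 300 ng/ml. Its other signals were 4.90, 4.57 and 4.78 with methanol, and 4.78 and 4.64 in untreated cells. All BMP4 arrays lay above the controls, those at 10 ng/ml by a narrow margin, and the mean difference was 0.85 (SE 0.14, limma adjusted p = 0.00268). Its partner Col8a1 was not called (-0.11, adjusted p = 0.823). Col10a1, the marker chain of hypertrophic cartilage, gave 4.72 and 4.47 at 10, 4.98 and 4.24 at 100, and 5.24 and 5.03 at 300 ng/ml. Against that stood 4.60, 4.31 and 4.38 with methanol, and 4.01 and 4.80 in untreated cells. The groups overlapped and the difference of 0.34 was not called (interval -0.18 to 0.85, adjusted p = 0.515).

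No basement membrane chain was called higher in the mean. Col18a1, whose last domain is released as endostatin, fell: its signals were 6.45 and 6.26 at 10, 6.86 and 6.33 at 100, and 6.35 and 6.60 at 300 ng/ml. They were 7.26, 6.89 and 6.91 with methanol, and 7.22 and 7.0 in untreated cells. Every BMP4 array was below every control, and the mean difference was -0.59 (1.5-fold lower, SE 0.16, limma adjusted p = 0.0447). The differences were -0.75 at 10, -0.51 at 100 and -0.50 at 300 ng/ml, none of them called on its own, and the slope was 0.05 per doubling (adjusted p = 0.651). The mean call was lost without any 1 of 6 arrays (both untreated, both 10 ng/ml and methanol replicates 2 and 3), with adjusted p = 0.058 to 0.322.

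Col4a1 and Col4a2 encode the 2 chains of the type IV network found in all basement membranes, and both declined as the dose grew. Col4a2 was at 6.37 and 6.53 at 10, 6.05 and 6.24 at 100, and 5.72 and 5.66 at 300 ng/ml. Controls of Col4a2 were at 6.36, 6.44 and 6.47 with methanol, and 6.49 and 6.39 in untreated cells. The 10 ng/ml arrays overlapped the control range, and the arrays at 100 and 300 ng/ml lay below it. The difference was -0.78 at 300 ng/ml (SE 0.17, limma adjusted p = 0.0134, or 0.0694 without untreated replicate 1), and -0.35 over the doses (adjusted p = 0.0932). The difference over the doses passed with the title runs as a block (-0.37, adjusted p = 0.0451), with untreated and methanol cells together as the control (-0.35, adjusted p = 0.0220) and among genes above the median signal (-0.35, adjusted p = 0.0490). Over 10 and 100 ng/ml alone, in the fit without 300 ng/ml replicate 2, the difference was -0.14 and was not called. Col4a1 had 6.85 and 7.11 at 10, 6.34 and 6.71 at 100, and 6.36 and 6.17 at 300 ng/ml. Control signals of Col4a1 were 6.97, 6.88 and 6.87 with methanol, and 6.96 and 6.62 in untreated cells. Its 300 ng/ml arrays lay below all controls, and its difference there was -0.62 (adjusted p = 0.0957). The slopes per doubling were -0.15 for Col4a2 (limma adjusted p = 0.0177) and -0.16 for Col4a1 (adjusted p = 0.0326). Both slopes lost their call without 10 ng/ml replicate 2 and without 300 ng/ml replicate 2. In the latter fit the slope was the step from 10 to 100 ng/ml alone (-0.09 for Col4a2 and -0.14 for Col4a1). The slope of Col4a1 also lost its call without methanol replicate 2 or 3 (limma adjusted p = 0.0638 and 0.0574) and after a second quantile normalization (0.0684). Col4a3, Col4a4, Col4a5, Col4a6, Col7a1 and Col15a1 had mean differences of -0.02 to 0.26 and were not called. So were the transmembrane chains Col13a1, Col17a1, Col23a1 and Col25a1, at -0.28 to 0.18, and Col26a1 and Col28a1, at -0.05 and -0.15.

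The called chains did not all reach the threshold at the same dose. At 10 ng/ml 3 of the 44 genes were called higher (Col6a1, Col6a2 and Col14a1) and 0 lower, beside 0.555% and 0.546% of all genes. A further 4 had an unadjusted p under 0.05 in limma there, 7 in all, beside 10% of all genes. Col6a1 missed the threshold at 10 ng/ml if one of these was left out: untreated replicate 1 (adjusted p = 0.0573), untreated replicate 2 (0.0908) or 10 ng/ml replicate 1 (0.0978). At 100 ng/ml 10 were higher and 0 lower, beside 4.4% and 4.75%. At 300 ng/ml 11 were higher and 1 lower, beside 3.7% and 4.28%. The slope on log2 dose was positive for 8 (Col1a1, Col1a2, Col2a1, Col5a1, Col5a2, Col6a3, Col8a2 and Col12a1) and negative for 3 (Col4a1, Col4a2 and Col14a1), beside 2.32% and 3.08%. Without 300 ng/ml replicate 2 each slope was the step from 10 to 100 ng/ml alone. The slopes of Col2a1 (0.34) and Col14a1 (-0.19) were then no longer called. Without 10 ng/ml replicate 2 those of Col6a3 (0.0741) and Col8a2 (0.0942) were no longer called, and Col6a3 also missed without 10 ng/ml replicate 1 (0.0716) or methanol replicate 2 (0.0507). These comparisons share the untreated arrays.

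Col6a2 had reached 74.6% of its 300 ng/ml difference at 10 ng/ml and Col6a1 77.9%, while Col6a3 had reached 39.4%. For Col1a1 the share at 10 ng/ml was 9.26%, for Col1a2 15.2%, for Col5a1 12.8% and for Col5a2 7.77%. Col12a1 was at 34.8%. These shares rest on few arrays. Within the first and second run of title numbers, with no labelling correction, they were 52.9% and 18.8% for Col12a1, 26.1% and 6.48% for Col1a2, 17.3% and 0.968% for Col5a2, 17.2% and 10.7% for Col5a1, and 11.4% and 7.20% for Col1a1. For Col6a1 they were 71.1% and 72.0%, for Col6a2 66.6% and 74.2%, and for Col6a3 33.7% and 43.9%. The steepest slopes per doubling were those of Col2a1 (0.41), Col12a1 (0.40), Col1a1 (0.35) and Col1a2 (0.34). The second probe set of Col1a2 had a slope of 0.14 (limma adjusted p = 0.483). It differed from untreated cells by 1.04 at 10 and by 1.77 at 300 ng/ml, so the low share of Col1a2 holds for its brightest probe set only. For Col5a1 the second probe set had a slope of 0.03 (limma adjusted p = 0.802). The slopes of Col6a1 (0.05, SE 0.03, limma adjusted p = 0.466) and Col6a2 (0.07, SE 0.03, adjusted p = 0.250) were not called. Whether the slopes differ between genes was not tested.

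**Figure D3:**
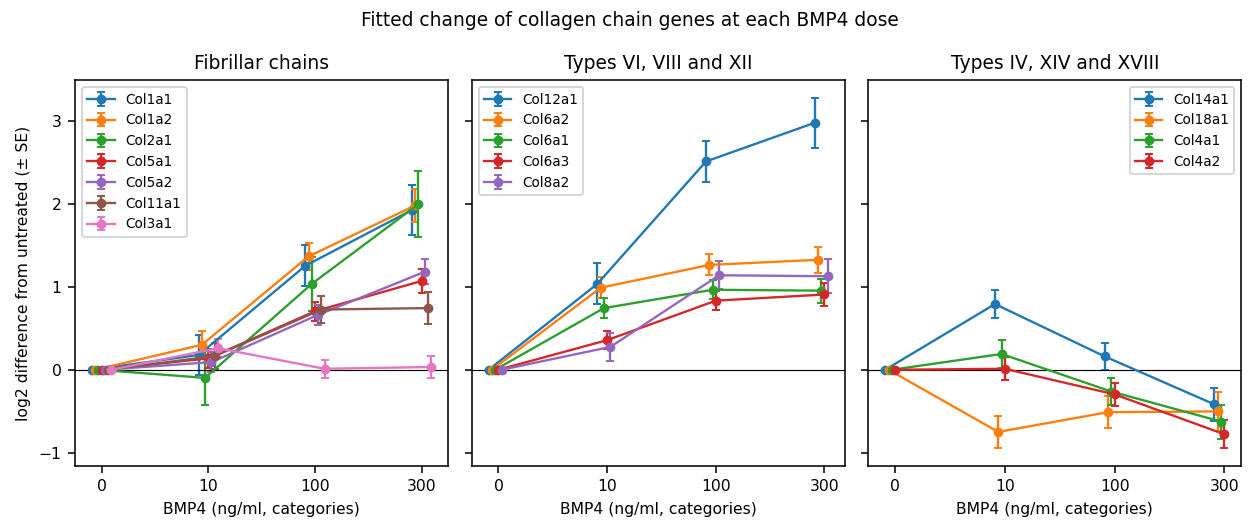
Fitted log2 difference from untreated cells at 0, 10, 100 and 300 ng/ml BMP4 (categories, bars ± SE, the value at 300 ng/ml from replicate 2 alone) for fibrillar chains, for types VI, VIII and XII, and for types IV, XIV and XVIII. Col6a1 and Col6a2 have most of their difference at 10 ng/ml, the type I and V chains climb from 10 to 300 ng/ml, and Col14a1 starts up and ends down.

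The 20 arrays fall into 2 runs of title numbers, which the labels do not call batches. Each run held 1 untreated array and 1 array of each BMP4 dose. Within the first and second run, the mean difference was 1.22 and 1.03 for Col1a1, 1.29 and 1.10 for Col1a2, 0.96 and 0.87 for Col6a1, 1.29 and 1.15 for Col6a2, 2.34 and 1.98 for Col12a1, and -0.66 and -0.60 for Col18a1. The remaining called genes also had the same sign in both runs. The runs were farther apart at single doses: Col12a1 at 10 ng/ml gave 1.5 and 0.57, and Col2a1 at 100 ng/ml gave 1.58 and 0.49. Col4a1 had a mean difference of -0.44 in the first run and 0.04 in the second.

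Some collagen genes lie side by side, and neighbours did not always move together. Col3a1 and Col5a2 are 24.6 kb apart on mouse chromosome 1 in the RefSeq annotation, and their BMP4 differences were 0.10 and 0.65. Col6a2 and Col6a1, 85.2 kb apart on chromosome 10, both rose (1.19 and 0.89). Col4a1 and Col4a2 run in opposite directions from starts 21 bases apart on chromosome 8, and their slopes were both called negative. The pairs Col4a3 with Col4a4, Col4a5 with Col4a6, and Col9a1 with Col19a1, and the row Col6a4, Col6a5 and Col6a6, held no called gene.

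The RefSeq promoter table (GRCm38.p6) held 35 of the 44 genes and 7 of the 11 that BMP4 raised. The 250 bases before the start are shown for Col1a2, Col5a1, Col6a1 and Col6a2, 5′ to 3′ on the strand of the gene. By their brightest probe sets, Col1a2 and Col5a1 rose mainly from 100 ng/ml, and Col6a1 and Col6a2 were already up at 10 ng/ml. The starts of both dose patterns, as these probe sets show them, are set side by side. The second probe set of Col1a2 did not follow the later pattern, with a difference of 1.04 at 10 ng/ml, not called there. That of Col5a1 did not follow it either, with -0.01 at 10, 0.22 at 100 and 0.11 at 300 ng/ml, none called. Col6a2 has 2 listed starts, and 1 is shown. Capitals mark matches to 5 motifs on either strand. They are the CCAAT box (CCAAT), the TATA box (TATAAA) and GGCGGG, a stretch found in many GC boxes. The others are a GC-rich motif bound by SMAD proteins (GGCGCC) and the SMAD box (CAGAC). Other forms of the GC box, such as GGGCGG, were not searched and are not marked. SMAD proteins carry the BMP signal to DNA.
Col1a2, chr6:4505368-4505617, plus strand: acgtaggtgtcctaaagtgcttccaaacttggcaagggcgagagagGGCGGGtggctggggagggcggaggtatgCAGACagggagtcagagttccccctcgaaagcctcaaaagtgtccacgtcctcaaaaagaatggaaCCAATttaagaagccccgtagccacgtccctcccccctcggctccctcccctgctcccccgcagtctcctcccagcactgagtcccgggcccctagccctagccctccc
Col5a1, chr2:27886175-27886424, plus strand: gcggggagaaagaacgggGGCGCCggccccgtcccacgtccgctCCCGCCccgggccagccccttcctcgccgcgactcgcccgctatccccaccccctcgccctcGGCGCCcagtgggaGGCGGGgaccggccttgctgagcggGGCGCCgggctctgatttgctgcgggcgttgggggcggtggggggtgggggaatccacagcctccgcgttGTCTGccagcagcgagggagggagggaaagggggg
Col6a1, chr10:76726045-76726294, minus strand: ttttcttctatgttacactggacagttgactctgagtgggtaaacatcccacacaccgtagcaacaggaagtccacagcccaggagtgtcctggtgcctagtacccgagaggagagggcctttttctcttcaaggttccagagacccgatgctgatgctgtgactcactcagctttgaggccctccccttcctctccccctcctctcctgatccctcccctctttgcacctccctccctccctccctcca
Col6a2, chr10:76623405-76623654, minus strand: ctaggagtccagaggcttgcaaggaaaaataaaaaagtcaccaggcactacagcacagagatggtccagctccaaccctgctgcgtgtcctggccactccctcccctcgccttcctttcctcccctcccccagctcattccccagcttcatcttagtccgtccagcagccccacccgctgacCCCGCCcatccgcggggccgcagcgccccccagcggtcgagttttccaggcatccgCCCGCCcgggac
Col1a2 held a match to GGCGGG, a SMAD box and a CCAAT box in this order. Col5a1 held 3 matches to GGCGCC, 2 to GGCGGG and 1 SMAD box. The window shown for Col6a2 held 2 matches to GGCGGG, and Col6a1 held none of the 5 motifs. No match overlapped another. Of the 32851 promoters in the table, 33.8% held CCAAT, 12.4% TATAAA, 32.5% GGCGGG, 9.59% GGCGCC and 42.2% CAGAC in the same window. Counted by gene, with a match at any listed start, the shares were 37.5%, 14.3%, 35.1%, 10.8% and 45.8% of 27025 genes in the same order. By the same count, the motifs were in 13, 5, 22, 4 and 17 of the 35 collagen genes and in 2, 0, 6, 1 and 5 of the 7 raised genes. The last of these counts includes Col6a2 through the start that is not shown. The window of that start held 1 match to GGCGGG and 1 SMAD box. A match describes the letters of the window and is not a site.

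Collagen needs a line of enzymes and carriers before it can form fibrils. Of 50 genes listed for these steps, 45 were measured. The list was drawn up with earlier results of these data known. With BMP4, 18 rose and 2 fell, beside 4.2% and 4.6% of all genes. Their median difference was 0.30, against -0.01 for all genes. Enzymes that hydroxylate or glycosylate the chains formed the largest group, with 9 of 14 raised. P3h2, a prolyl 3-hydroxylase, rose by 2.65 (SE 0.27, limma adjusted p = 8.93e-05), with signals of 7.09 and 6.28 at 10, 8.49 and 7.49 at 100, and 8.61 and 8.97 at 300 ng/ml. Its controls were 5.46, 5.21 and 5.60 with methanol, and 4.98 and 5.48 in untreated cells, below all BMP4 arrays. All 3 catalytic subunits of the prolyl 4-hydroxylase, which stabilises the triple helix, rose: P4ha3 by 1.46 (adjusted p = 0.000659), P4ha2 by 0.89 (0.017) and P4ha1 by 0.37 (0.019). The lysyl hydroxylase Plod2, which shapes the cross-links of bone collagen, rose by 0.83 (SE 0.09, limma adjusted p = 0.000121). P4hb, Plod1, Crtap and Colgalt1 rose by 0.34 to 0.68. The call of P4ha2 was lost without either untreated array. It was also lost without 300 ng/ml replicate 2, where the mean difference over 10 and 100 ng/ml alone was 0.65.

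Of 10 genes for folding and secretion, 5 rose and 1 fell. Creb3l1, a transcription factor of the endoplasmic reticulum that drives Col1a1 in mouse osteoblasts, rose by 1.07 (SE 0.16, limma adjusted p = 0.000949). Fkbp14, a prolyl isomerase, rose by 0.87, and Sec24d, Sparc and Sec23a by 0.42 to 0.48. Serpinh1, the collagen chaperone HSP47, was not called, at 0.27 (adjusted p = 0.126). Its signals were 10.70 and 10.64 at 10, 11.04 and 10.89 at 100, and 11.10 and 10.76 at 300 ng/ml. In controls they were 10.68, 10.46 and 10.44 with methanol, and 10.64 and 10.42 in untreated cells, and the groups overlapped. Tmem38b, an ion channel of the endoplasmic reticulum that type I collagen assembly needs, fell by 1.06 (SE 0.17, limma adjusted p = 0.0019).

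Of 7 genes that trim procollagen, Pcolce2, an enhancer of the enzyme that removes the C-terminal propeptide, rose by 0.81, and Adamts14, which removes the N-terminal propeptide, fell by 1.43 (SE 0.13, limma adjusted p = 4.03e-05). Adamts14 read 6.87 and 7.35 at 10, 6.31 and 6.42 at 100, and 5.68 and 6.31 at 300 ng/ml. It read 7.83, 7.93 and 7.98 with methanol, and 8.02 and 8.04 in untreated cells. All BMP4 arrays were below all controls. Bmp1, the C-propeptidase, was just short of the threshold at 0.26 (adjusted p = 0.0526). Of 5 cross-linking genes, Lox, the lysyl oxidase, rose by 0.92 (SE 0.15, limma adjusted p = 0.00186), and Loxl1, Loxl3, Loxl4 and Tgm2 were not called. Of 9 receptors, the integrin chains Itga11 (1.33, adjusted p = 0.000909) and Itga1 (1.2, adjusted p = 0.00256) rose, while Itga2, Itgb1, Ddr1, Ddr2, Gp6, Lair1 and Mrc2 were not called.

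**Figure D4:**
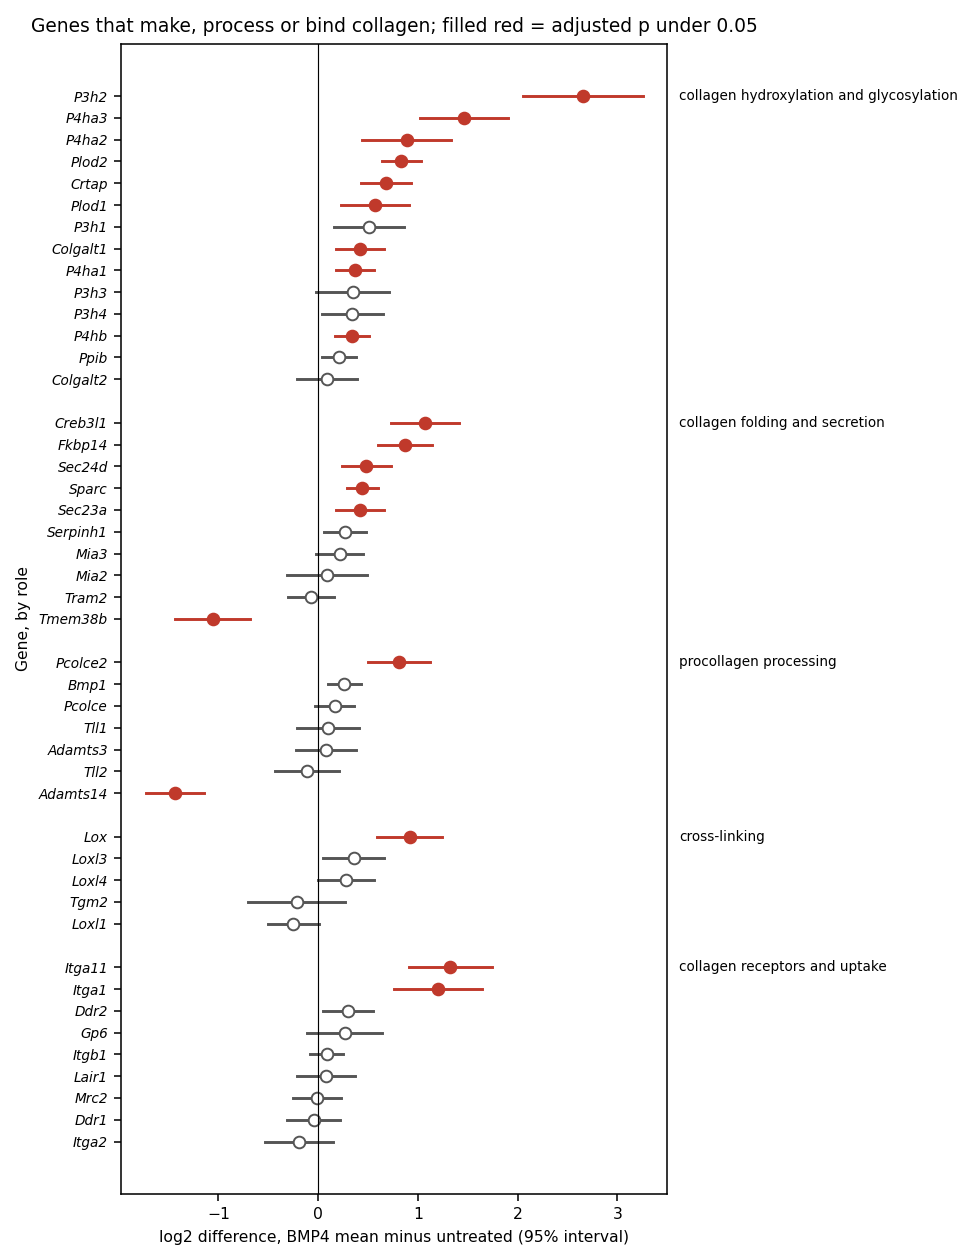
Mean log2 difference of BMP4 from untreated cells with its 95% interval for the 45 measured genes that modify, carry, trim, cross-link or bind collagen, by role. Filled red points passed the test: 18 lie right of 0 and 2, Tmem38b and Adamts14, lie left.

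The compounds left the collagen genes without a call. In limma, 0 of the 44 genes passed in the mean over doses of 942, 178 or 181 minus methanol, beside 0%, 0% and 0.00451% of all genes. At an unadjusted p under 0.05 the counts were 0, 0 and 1 of 44, beside 1.5%, 2.47% and 3.68% of all genes. The 1 gene was Col6a1 in 181, at 0.24 (interval 0.04 to 0.45, unadjusted p = 0.0256, adjusted p = 1.0). For Col1a2, the interval of the mean difference was -0.63 to 0.52 for 942, -0.29 to 0.29 for 178 and -0.30 to 0.27 for 181, all below its BMP4 difference of 1.22. For Col12a1 the intervals reached 0.75, 0.38 and 0.55 at the upper end, in the same order, beside 2.17 with BMP4. BMP4 and the compounds were set against different controls and given in different units of dose. Of the 45 genes that process collagen, 0 passed in any compound, with 0 unadjusted p under 0.05 in 942 and 178 and 3 in 181 (P4ha1, P3h4 and Tram2, at -0.33 to -0.22).

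**Figure D5:**
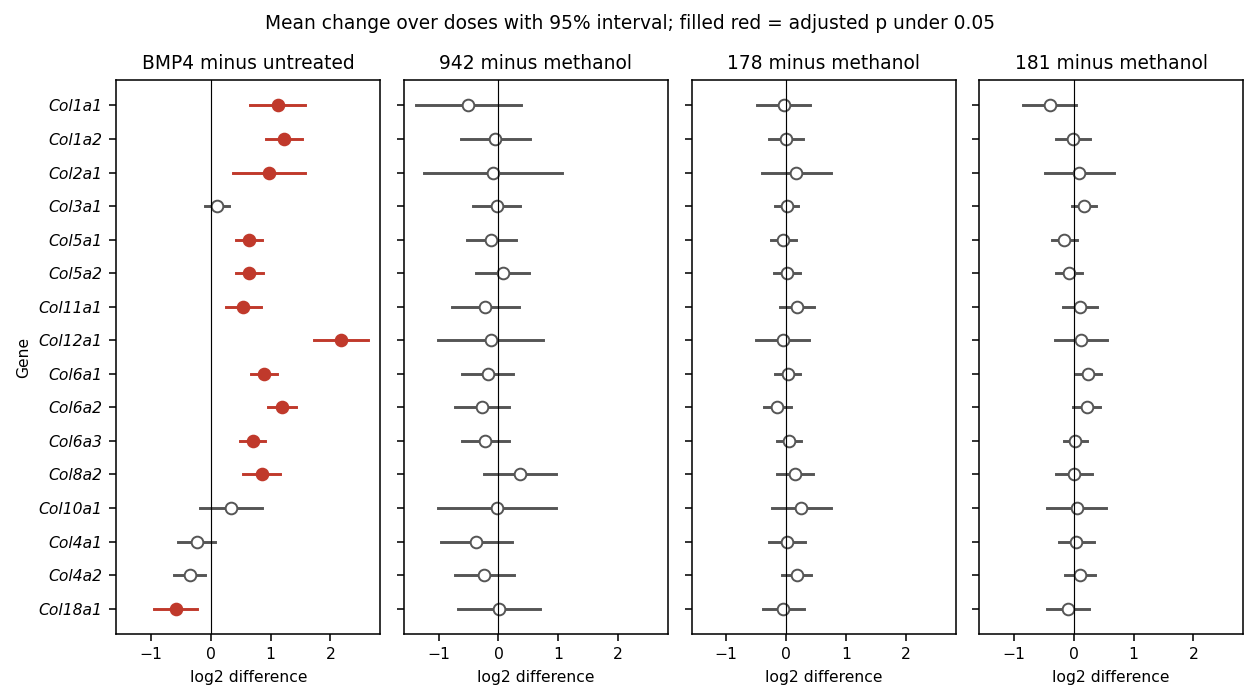
Mean log2 difference over doses with its 95% interval for 16 collagen chain genes, for BMP4 minus untreated and for 942, 178 and 181 minus methanol. Filled red points passed the test, and all 12 of them lie in the BMP4 panel.

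At the single dose of 25 µM, 942 had 1 of 44 genes and 181 had 4 with an unadjusted p under 0.05, beside 1.73% and 6.38% of all genes, and none passed after adjustment. Col1a1 was among them in both. Its signals at 6.25, 12.5 and 25 µM were 8.88, 8.6 and 7.92 with 942, 8.82, 9.0 and 8.91 with 178, and 8.76, 8.65 and 8.23 with 181, against 9.18, 8.91 and 8.77 with methanol. The 25 µM arrays of 942 and 181 lay below every other array of the series, and in both compounds the signal was lower at each higher dose. At 25 µM, 942 differed from methanol by -1.05 (interval -2.03 to -0.07, adjusted p = 1.0), and by -1.03 (interval -1.61 to -0.45, unadjusted p = 0.00209, adjusted p = 0.712) without the labelling term. For 181 the value was -0.72 (interval -1.34 to -0.10, adjusted p = 0.691). Against the methanol arrays of the same run of title numbers, the differences at 25 µM were -1.26 for 942 (1 methanol array), 0.07 for 178 (2 arrays) and -0.61 for 181 (2 arrays). Against the same arrays, Col1a2, the other type I chain, differed by -0.30 with 942, 0.0018 with 178 and -0.0068 with 181. In the mean over doses without the labelling term, 942 differed from methanol with an unadjusted p under 0.05 for 4 of the 44 genes, beside 3.32% of all genes. These were Col1a1 (-0.48), Col4a5 (-0.26), Col5a1 (-0.25) and Col6a3 (-0.20), and none passed after adjustment (limma adjusted p = 1.0 for each).

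The other genes in 181 at 25 µM were Col6a4, at -0.62 (adjusted p = 0.516), and Col6a1 and Col6a2, both at 0.34 (adjusted p = 0.700 and 0.757). Col6a1 read 9.82, 9.95 and 10.02 at the 3 doses of 181 and Col6a2 read 8.35, 8.42 and 8.56. With methanol they read 9.69, 9.66 and 9.71 for Col6a1, and 8.33, 8.25 and 8.10 for Col6a2. All 3 arrays of 181 lay above all methanol arrays for both genes, and below all BMP4 arrays. For Col6a1 the 6.25 µM array lay below untreated replicate 1 (9.90). The share of all genes with arrays of 181 wholly above methanol was not counted. Both genes were named for their unadjusted p at 25 µM in these same arrays, so the separation adds no support of its own. The compounds were compared in 12 contrasts, at each matched dose and as means for the 3 pairs, and 0 collagen genes passed in any of them. Between 181 and 178 the mean difference was 0.37 for Col6a2 (interval 0.14 to 0.60, unadjusted p = 0.00387, adjusted p = 0.778) and 0.22 for Col6a1 (interval 0.01 to 0.43, adjusted p = 0.923). These were the 2 of 44 genes with an unadjusted p under 0.05, beside 5.29% of all genes. The structures behind the code names were not used here. The wide intervals leave room for differences between the compounds.

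Methanol against untreated cells gave 0 called collagen genes and 0 with an unadjusted p under 0.05 in limma, beside 0% and 2.86% of all genes. The differences ran from -0.38 (Col25a1) to 0.22 (Col28a1).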

How the data were processed

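Per the submitters' processing notes, the authors made the deposited log2 signals, 1 per probe set and array, in Partek 6.5 with RMA, and they were used as they stood. Any correction for the 2 labelling methods was not given in the sources used here. Of 41345 probe sets, 23521 carried 1 gene symbol, 1814 several and 16010 none in the platform annotation; no gene was named from several, which left out 1 probe set listing Col6a1. A gene with several probe sets took the brightest by mean signal, and 3 collagen genes had 2.

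Limma 3.58.1 in R 4.3.3 fitted 14 group means and a labelling term to all 20 arrays (5 residual degrees of freedom, median prior 6.73), with eBayes and a trend on mean signal, tested on simulated data. The labelling term rests on the 2 arrays at 300 ng/ml, which widens the errors of compound 942. Single compound arrays were assumed to vary like replicated groups. The call was an adjusted p under 0.05 (Benjamini-Hochberg over 22180 genes). The small number of arrays limits the precision. The members, classes, gene lists and tests were chosen with earlier results of these data known.

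Per-array values are given for every collagen gene called for BMP4 and for 10 genes named in any case. Among related genes they are given for P3h2, Serpinh1 and Adamts14 only. Values of the single compound arrays are given for Col1a1, Col6a1 and Col6a2. Of the related genes, Plod3, Fkbp10, Adamts2, Loxl2 and Itga10 were not analysed here. Alternatives covered scaling, probe sets, controls, trend, labelling, title runs and left-out arrays.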

Additional observations from a re-analysis of the deposited data

How the results depend on the processing

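The count of 11 collagen genes raised by BMP4 was 6 with a common mean for the doses, which lost Col1a1, Col2a1, Col5a1, Col5a2 and Col11a1, and 7 to 11 when single arrays were left out. The lowest count came without 300 ng/ml replicate 2, a fit whose mean covered 10 and 100 ng/ml alone. Without untreated replicate 2 the calls of Col1a1, Col2a1, Col11a1 and Col18a1 were lost. The fit among genes above the median signal (5.43) did not hold Col8a2 and Col11a1, whose mean signals were 4.97 and 4.75. In all, 20 of the 44 chains had mean signals at or below that median. The count of 1 lowered gene was 2 with a term for the title runs, 2 among genes above the median signal and 2 with untreated and methanol cells together as the control, the added gene being Col4a2 each time. It was 0 without the trend and 0 with a common mean, and 0 to 1 with an array left out. At 10 ng/ml the count of 3 was 5 with the run term, 1 without the trend, 5 with methanol as the control, 6 with both controls together and 1 to 4 with an array left out, with 1 when an untreated array or 10 ng/ml replicate 1 was missing. The count of 11 slopes was lowest without 10 ng/ml replicate 2 or without 300 ng/ml replicate 2. In the latter fit the slope was the step from 10 to 100 ng/ml alone. Single dose counts of 10 at 100 ng/ml and 12 at 300 ng/ml were 8 to 11 and 10 to 13 with an array left out. Of the 45 measured genes that process or bind collagen, 20 were called in the mean of BMP4. Sharing 1 mean among the doses left 13 and lost P4ha2, Creb3l1, Tmem38b, Pcolce2 and Itga11 among those named. The counts of 0 for compounds, methanol and compound pairs stayed 0 under each alternative run. No called collagen gene changed direction under any of these alternatives or between the title runs, while Col4a1, not called in the mean, was at -0.44 in one run and 0.04 in the other. Over 61 BMP4 results of single genes and the 20 refits that could alter them, 1089 values kept their side of the threshold, 72 missed it and 3, all of Col4a2, came past it. Of the untested values within a run, 26 moved by more than the spread and 96 did not. Apart from arrays left out, the causes of these changes were not tested. The labels carry no replicate numbers, and the run of title numbers served as the block. The few arrays and the absence of detection calls limit what can be said of weakly hybridised chains. No group had enough arrays for the check on arrays far from the others of their group.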

Other observations

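In untreated and methanol-treated cells the 2 chains of type I collagen had different spreads. Over the 5 control arrays Col1a2 lay between 9.41 and 9.54 and Col1a1 between 8.77 and 9.28. Over the 9 compound arrays Col1a2 lay between 9.15 and 9.50 and Col1a1 between 7.92 and 9.0.

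Without the labelling term, the slope on the dose of 942 had an unadjusted p under 0.05 for 2 of the 44 collagen genes, beside 2.39% of all genes. It was -0.48 for Col1a1 per doubling (interval -0.84 to -0.13, unadjusted p = 0.0119) and -0.21 for Col5a2 (unadjusted p = 0.0367), and neither passed.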
